A study of Mus musculus with 19 samples.

Results

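Abdominal aortas from mice that were irradiated 3 days before angiotensin II (AngII) infusion began were compared with aortas from AngII-infused mice that were never irradiated. The comparison used 12 of the 19 RNA-seq libraries of the series, chosen by their sample titles: 7 from mice irradiated at D-3 (D-3 IR, libraries 10 to 16) and 5 from non-irradiated mice (Control, libraries 4, 5, 6, 8 and 9). All mice, Control included, were Apoe-/- and received AngII from an osmotic pump placed under the skin at 8 to 10 weeks of age. D-3 IR mice received a single whole-body X-ray dose of 1 Gy under ketamine and xylazine, and Control mice received the same anaesthetic without X-rays. The other 7 libraries came from mice given the same dose 1 day after the pump (D+1 IR) and served here to estimate the spread between animals and as a second irradiated group. Each library was made from polyadenylated RNA of a piece of abdominal aorta, and the study counted mice as replicates. Tissue for analysis was taken after 7 days of infusion, and whether this covers the sequenced aortas is not given in the sources used here. Mice were irradiated 3 at a time, and which mice shared a session is likewise not given, so session and mouse cannot be told apart.

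AngII infusion of hypercholesterolemic Apoe-/- mice is a model of abdominal aortic aneurysm, in which monocytes and neutrophils enter the wall, metalloproteinases cut elastin and collagen, and medial smooth muscle cells lose contractile proteins. X-rays break DNA, and the tumour suppressor p53 is then stabilised and switches on genes for cell cycle arrest, repair and cell death. Whole-body exposure also reaches bone marrow, where neutrophils, monocytes and lymphocyte precursors are made, and lymphocytes are among the most radiation-sensitive cells of the body. The question that the design puts is whether the aortic transcriptome of mice exposed before AngII differed from that of unexposed mice.

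Counts assigned to genes ranged from 27407579 to 87410421 per library in D-3 IR and from 28758369 to 63767498 in Control. Values are given as CPM, counts scaled to a common library total and adjusted by trimmed mean of M-values (TMM), and a log2 fold change is D-3 IR minus Control throughout. The label of the tissue was met by its markers: 36 contractile genes of smooth muscle, headed by Acta2 (smooth muscle actin), summed to 21460 to 53360 CPM in D-3 IR aortas and 13140 to 64060 CPM in Control aortas, and 20 endothelial genes summed to 1452 to 2607 CPM in D-3 IR aortas and 983 to 1939 CPM in Control aortas. In bulk tissue, fewer cells of a type and less RNA per cell cannot be told apart. Reads were also counted in Apoe, the inactivated gene, at 3.58 to 25.1 CPM with a median of 10.4 CPM in D-3 IR aortas, against 13, 25.4, 8.47, 23.1 and 8.4 CPM in Control aortas, and where along the gene they lie was not analysed here. Although the library kit keeps strand, 49.95 to 50.14% of gene-assigned reads fell on the second strand in these 12 libraries, so strand could not separate overlapping genes. Reads that could belong to several genes were left out of the counts as ambiguous (3.70 to 4.26% of reads).

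Several libraries stood apart in transcripts of other cell types, in gene lists drawn up with earlier results of these data known. The 20 neutrophil genes summed to 22.5 to 195 CPM in D-3 IR aortas, against 13.1 to 156 CPM in 4 Control aortas and 1491 CPM in Control 9. The 20 T cell genes summed to 533 CPM in D-3 IR 10, and the other 6 D-3 IR aortas (43.3 to 110 CPM) lay within the Control range (42.3 to 128 CPM). Skeletal muscle genes reached sums of 10410 CPM (D-3 IR 10) and 4152 CPM (D-3 IR 15), with 1037 CPM in Control 5 and at most 187 CPM in any other of the 12. Genes of sympathetic neurons and adrenal medulla summed to 2222, 2116 and 899 CPM in D-3 IR 12, 10 and 15, against 9630 CPM in Control 8 and 3686 CPM in Control 4. Values obtained without D-3 IR 10, without Control 9 or without both are given beside the results that turn on these aortas. D-3 IR 10 was picked for its high lymphoid genes and Control 9 for its high neutrophil genes. Shifts of those lists without these aortas therefore follow from the choice and are given as a description. The part of tissue makeup in any result was not tested.

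**Figure D1:**
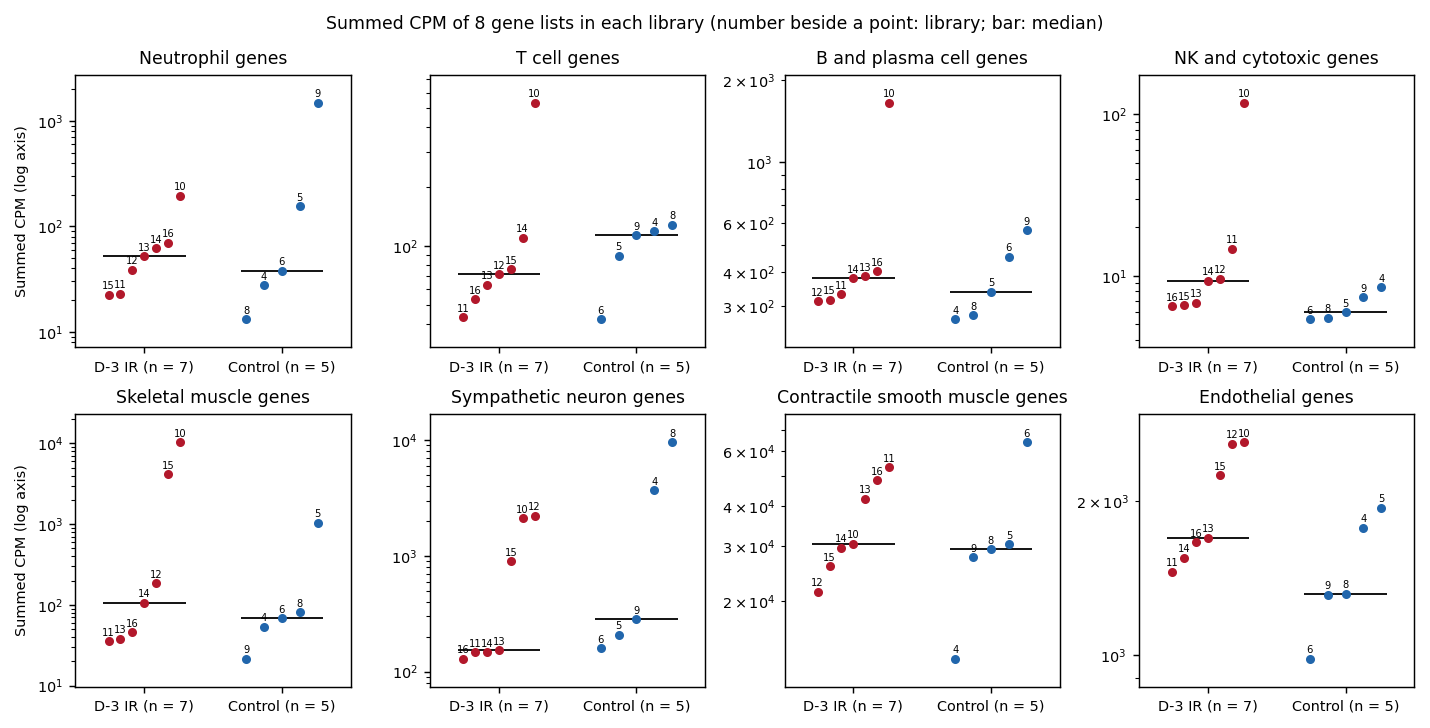
Summed CPM of the genes of 8 lists in each library, on a log axis, with 7 D-3 IR libraries (red, left) and 5 Control libraries (blue, right) in each panel; numbers name the library and bars give the median. D-3 IR 10 stood at 533 CPM for T cell genes and Control 9 at 1491 CPM for neutrophil genes, while the contractile and endothelial panels show broad overlap of the groups.

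Irradiation before AngII was not accompanied by a difference in any single transcript that passed the test. With edgeR's quasi-likelihood F-test on 17617 genes, 0 genes were called at an adjusted p under 0.05 (Benjamini-Hochberg), which is 0% of those tested, and the smallest adjusted p was 1. DESeq2 and limma voom, fitted to the same genes, also called 0. At an unadjusted p under 0.05 there were 232 genes (1.32%), 88 of them higher in D-3 IR (0.5%) and 144 lower (0.817%), and DESeq2 gave 346 such genes and voom 138. Were no gene different, a fraction of about 0.05 of the genes would be expected under this threshold, and 1.32% lies below it. Genes under it are therefore a description and not a set of differences. With upper quartile scaling the split was 99 higher and 101 lower. The 95% interval of the log2 fold change had a median half-width of 0.69 (quartiles 0.42 and 1.19). For a typical gene, a difference under about this size would not reach even an unadjusted p of 0.05 in this fit. A call after adjustment over 17617 genes needs a difference larger than that. Log2 fold changes above 1 were fitted for 430 genes and below -1 for 1110, against a median of -0.03 over all genes.

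The identity of the genes at the top depended on single aortas. Without D-3 IR 10, 302 genes (1.73%) were at an unadjusted p under 0.05, 31 higher (0.178%) and 271 lower (1.55%). Without Control 9 there were 279 (1.55%), 115 higher (0.639%) and 164 lower (0.911%). Log2 fold changes above 0 made up 43.1% of all genes, and 42.5% without D-3 IR 10, 47.5% without Control 9 and 45.9% without both. Of the 144 genes at an unadjusted p under 0.05 and lower in D-3 IR, 31 were still so without Control 9, and 57 took the opposite sign. Of the 88 that were higher, 79 were still tested without D-3 IR 10, 20 of them were still at an unadjusted p under 0.05 in that direction, and 4 took the opposite sign. Without both libraries 0 genes were called, 486 of 17789 (2.73%) were at an unadjusted p under 0.05, 103 higher (0.579%) and 383 lower (2.15%), and these shared 16 of the 88 higher and 36 of the 143 lower genes that were still tested. A gene whose 7 D-3 IR values all lay above or all below the 5 Control values was rare: 0 genes were wholly higher (0%) and 2 genes were wholly lower, together 0.0114% of those tested.

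Those 2 genes were Zc3h15 and Mocs3, named after their values were seen, and the separation was small. Zc3h15 (chromosome 2, 83644435 to 83664622, GRCm38), which encodes a zinc finger protein that binds the translation GTPase DRG1, had 57.2 to 67.1 CPM with a median of 62.7 CPM in D-3 IR aortas, against 68.6, 70.3, 70.9, 82.3 and 79.5 CPM in Control aortas. Its log2 fold change was -0.25 ± 0.10 (SE), with unadjusted p = 0.0168. Mocs3 (chromosome 2, 168230622 to 168232594), an enzyme of molybdenum cofactor synthesis and tRNA thiolation, had 6.8 to 8.5 CPM with a median of 8.17 CPM in D-3 IR aortas, against 9.43, 9.76, 9.51, 9.12 and 10.5 CPM in Control aortas. Its log2 fold change was -0.26 ± 0.12 (SE), and -0.23 without D-3 IR 10 and Control 9. The gap between the groups lay between 67.1 CPM (D-3 IR) and 68.6 CPM (Control) for Zc3h15, and between 8.5 and 9.12 CPM for Mocs3, and with upper quartile scaling the groups overlapped in both genes.

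Among the genes higher in D-3 IR with the smallest p, Capn12, Arhgap8 and Stc1 are described first. Capn12 (chromosome 7, 28881422 to 28893563), a calcium-dependent cysteine protease of the calpain family, had 0.552 to 1.07 CPM with a median of 0.867 CPM in D-3 IR aortas, against 0.405, 0.584, 0.136, 0.37 and 0.292 CPM in Control aortas. Of the 7 D-3 IR aortas, 6 lay above all 5 Control aortas and only D-3 IR 15 fell below Control 5. The log2 fold change was 1.22 ± 0.34 (SE) with a 95% interval of 0.51 to 1.94 (unadjusted p = 0.0021, adjusted p = 1), and 1.09 without D-3 IR 10 and Control 9. Arhgap8 (chromosome 15, 84720052 to 84772207), a GTPase-activating protein, had 0.542 to 0.983 CPM with a median of 0.838 CPM in D-3 IR aortas, against 0.295, 0.451, 0.375, 0.401 and 0.636 CPM in Control aortas. Here D-3 IR 14 alone fell below Control 9, the highest Control aorta, and the log2 fold change was 0.90 ± 0.31 (SE, unadjusted p = 0.00926). Stc1 (chromosome 14, 69029238 to 69041804), which encodes the secreted glycoprotein stanniocalcin 1, had 5.24 to 15 CPM with a median of 9.27 CPM in D-3 IR aortas, against 5.16, 7.59, 5.63, 4.29 and 7.87 CPM in Control aortas, with a log2 fold change of 0.69 ± 0.24 (SE) and overlap of D-3 IR 11 and 13 with Control. None of the 3 passed the adjusted threshold.

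Foxq1, a forkhead transcription factor (chromosome 13, 31556134 to 31560976), had the smallest p of the genes higher in D-3 IR but very few reads. There were 9, 2, 5, 0, 40, 12 and 2 reads in D-3 IR aortas 10 to 16, 70 in all, against 0, 0, 0, 0 and 1 read in Control aortas. The ratio of the pooled rates was 39.6, with an exact 95% counting interval of 6.87 to 1585 that covers counting error only, and 40 of the 70 reads came from D-3 IR 14. Ncr1, the NK cell receptor NKp46, had 73 reads over 6 of 7 D-3 IR aortas and 4 reads over 2 of 5 Control aortas. The ratio was 10.3 with a counting interval of 3.86 to 38.9, which leaves out the spread between mice. D-3 IR 10 held 22 of these reads and D-3 IR 14 held 20. In edgeR its log2 fold change was 3.12 ± 1.21 (SE), and it was not tested without D-3 IR 10. Ntm, a neuronal adhesion molecule, had 0.54 to 1.97 CPM with a median of 0.7 CPM in D-3 IR aortas, against 0.59, 0.531, 0.307, 0.308 and 0.239 CPM in Control aortas, with only D-3 IR 11 below the highest Control aorta, and a log2 fold change of 1.26 ± 0.43 (SE, unadjusted p = 0.00822). Pdcd5-ps is a processed pseudogene of Pdcd5, a gene linked to apoptosis, and its reads cannot be cleanly split from the parent gene. The pseudogene had a log2 fold change of 1.53 ± 0.46 (SE) and Pdcd5 itself -0.25 ± 0.18 (SE).

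**Figure D2:**
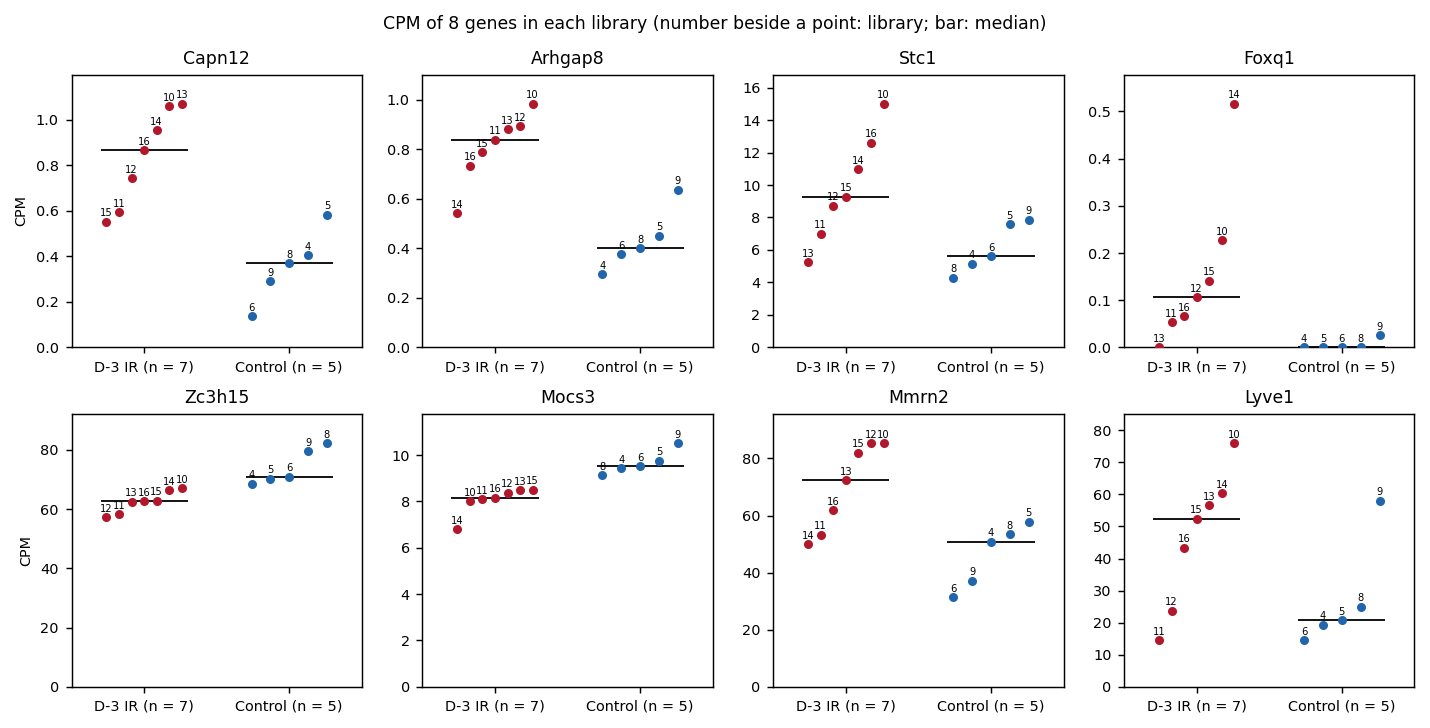
CPM of 8 genes in each library on linear axes from 0, with 7 D-3 IR libraries (red, left) and 5 Control libraries (blue, right); numbers name the library and bars give the median. Capn12, Arhgap8 and Stc1 lean towards D-3 IR with overlap, Zc3h15 and Mocs3 are the 2 genes without overlap, and Control 9 holds the top Control value of Lyve1 at 58 CPM.

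Inflammatory genes had lower fitted levels in D-3 IR, and 1 Control aorta set the size and sign of that difference. That aorta, Control 9, was picked for leaving out because its neutrophil genes were high, so the shift without it is a description. Neutrophil genes gave a median log2 fold change of -2.22 (3 of 19 higher, 10 lower at an unadjusted p under 0.05, as 0.817% of all genes were, 0 called), which became 0.31 without Control 9 and -0.04 without D-3 IR 10 and Control 9. The 19 tested genes for inflammatory cytokines and mediators had a median of -1.49 with 8 lower at an unadjusted p under 0.05 (against the same 0.817%), and 0.97 without Control 9. Monocyte chemokines and receptors gave -0.86 and 0.74, and alternative activation genes -0.18 and 0.73. The defining neutrophil gene S100a9, a subunit of calprotectin, had 1.21 to 35.1 CPM with a median of 4.71 CPM in D-3 IR aortas, against 5.01, 32.7, 6.89, 0.339 and 387 CPM in Control aortas. Control 9 was the highest of all 12, and the other 4 Control aortas lay within the D-3 IR range or, for Control 8, below it.

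The same aorta led for most of the genes with the smallest p in the lower direction. Cd14, the co-receptor for lipopolysaccharide on myeloid cells, had 6.67 to 20.7 CPM with a median of 12.1 CPM in D-3 IR aortas, against 9.69, 24.5, 5.35, 7.61 and 428 CPM in Control aortas, giving a log2 fold change of -2.84 ± 0.84 (SE, unadjusted p = 0.00317) and 0.17 without Control 9. Il1b, the gene of interleukin-1 beta, had 0.403 to 7.84 CPM with a median of 1.61 CPM in D-3 IR aortas, against 0.368, 3.13, 1.36, 0.277 and 139 CPM in Control aortas, and its log2 fold change of -3.52 ± 1.28 (SE) became 0.97. Il1rn, the antagonist of the interleukin-1 receptor, had 0.594 to 4.5 CPM with a median of 3.05 CPM in D-3 IR aortas, against 0.368, 3.29, 1.23, 0.247 and 124 CPM in Control aortas. In each of these 3 genes Control 9 lay far above the other 11 aortas, whose values overlapped between the groups. Nlrp3, the inflammasome sensor, had 0.568 to 1.46 CPM with a median of 1.07 CPM in D-3 IR aortas, against 0.368, 1.22, 0.955, 0.586 and 31.5 CPM in Control aortas. Cd177, a surface protein of neutrophils, Mxd1, a partner of Max, and Hdc, the histamine-forming enzyme, gave log2 fold changes of -3.22, -1.59 and -2.15, and -0.12, 0.06 and 0.30 without Control 9. Arg2, the mitochondrial arginase, had at most 0.353 CPM in D-3 IR aortas, against 9.57 CPM in Control 9 and at most 0.277 CPM in the other 4 Control aortas. The chemokine ligands Ccl2, Ccl3 and Ccl4, which recruit monocytes, had 314, 18.2 and 19.9 CPM in Control 9. Without it their log2 fold changes were 0.92, 0.97 and 0.58, where they had been -2.73, -2.84 and -3.33 with it. Itgam, the integrin chain of myeloid cells, and Hmox1, heme oxygenase 1, showed the same dependence, with -1.95 and -2.10 against 0.68 and 0.92 without Control 9.

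Promoters of this group were read from RefSeq (GRCm38.p6) because NF-kappa B, the transcription factor of the inflammatory response, binds a short site in many of them. Of the 41 genes of the inflammatory and monocyte chemokine lists, 33 matched an entry, with 39 windows of 300 bases (250 before to 50 after a start). A match to the kappa B consensus on either strand was in 8 of these 39 windows (20.5%) and in 4.51% of all 32851 windows of that length. The 8 windows belonged to Ccl20, Csf1, Cxcl1, Cxcl2, Cxcl10, Il1r1, Il6 and Nlrp3. A match is a description of letters and not a bound site. The 3 windows below are from genes that were highest in Control 9, Il6 (chr5:30012864-30013163, plus strand), Cxcl2 (chr5:90903649-90903948, plus strand) and Nlrp3 (chr11:59541319-59541618, plus strand), with the kappa B match in capitals.
Il6: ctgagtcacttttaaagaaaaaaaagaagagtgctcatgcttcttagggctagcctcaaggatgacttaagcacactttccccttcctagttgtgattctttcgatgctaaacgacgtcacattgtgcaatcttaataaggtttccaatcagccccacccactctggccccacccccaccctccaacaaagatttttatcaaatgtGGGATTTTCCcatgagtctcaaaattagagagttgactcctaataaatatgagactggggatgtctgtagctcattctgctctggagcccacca
Cxcl2: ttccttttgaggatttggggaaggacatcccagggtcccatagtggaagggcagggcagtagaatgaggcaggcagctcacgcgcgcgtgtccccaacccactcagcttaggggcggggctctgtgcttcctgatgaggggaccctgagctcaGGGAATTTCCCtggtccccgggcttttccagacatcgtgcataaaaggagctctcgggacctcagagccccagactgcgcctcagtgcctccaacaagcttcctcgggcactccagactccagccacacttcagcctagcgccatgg
Nlrp3: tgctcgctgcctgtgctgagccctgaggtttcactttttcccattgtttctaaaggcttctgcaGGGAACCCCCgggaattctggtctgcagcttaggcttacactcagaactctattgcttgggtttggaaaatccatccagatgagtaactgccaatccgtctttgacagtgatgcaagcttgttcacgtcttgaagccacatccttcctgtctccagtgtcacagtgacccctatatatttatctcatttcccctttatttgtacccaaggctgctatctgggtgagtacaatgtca
The gene of interleukin-6, Il6, had 0.276 to 3.47 CPM with a median of 0.741 CPM in D-3 IR aortas, against 0.0737, 1.94, 0.546, 0 and 52 CPM in Control aortas. Cxcl2, a chemokine for neutrophils chosen after its values were seen, had 0.106 to 10.6 CPM with a median of 1.15 CPM in D-3 IR aortas, against 0.111, 1.17, 0.239, 0.0617 and 228 CPM in Control aortas. In both, Control 9 lay far above the other 11 aortas, and D-3 IR 16 was the next highest.

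Another lower gene rested on a different aorta: 9530053A07Rik had 0.0235 to 0.439 CPM in D-3 IR aortas, against 46.2 CPM in Control 6 and at most 0.424 CPM in the other 4 Control aortas, with a log2 fold change of -5.50 ± 1.25 (SE) and -0.42 without Control 6. Itih1, a heavy chain of inter-alpha-trypsin inhibitor, had only 8 reads over 3 of 7 D-3 IR aortas and 43 reads over all 5 Control aortas, 21 of them in Control 6. The ratio of its pooled rates was 0.105, with an exact 95% counting interval of 0.0427 to 0.226 that covers counting error only.

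Lymphocyte genes had higher fitted levels in D-3 IR, and this rested mainly on D-3 IR 10. That aorta was picked for leaving out because its lymphoid genes were high, so the fall without it is a description. T cell genes gave a median log2 fold change of 2.43 (19 of 20 higher, 7 at an unadjusted p under 0.05, as 0.5% of all genes were) with all libraries and -0.24 without D-3 IR 10. B and plasma cell genes gave 2.63 and -0.80, and MHC class II genes 0.62 and -0.27. Cd4, the co-receptor of helper T cells, had 1.15 to 52 CPM with a median of 1.72 CPM in D-3 IR aortas, against 1.55, 1.19, 1.33, 1.29 and 1.51 CPM in Control aortas, and 6 of the 7 D-3 IR aortas were at or below 2.25 CPM. Trbc2, a constant segment of the T cell receptor beta chain, had 48.4 CPM in D-3 IR 10 and at most 1.54 CPM in the other D-3 IR aortas, against 0.401 to 1.53 CPM in Control aortas. Glycam1, a mucin-like ligand of L-selectin made by the high endothelial venules of lymph nodes, had 8496 reads (214 CPM) in D-3 IR 10 and 0 to 10 reads in each of the other 6, against 6 reads in the 5 Control aortas. Cr2, the complement receptor of B cells and follicular dendritic cells, had 1567 of its 1630 D-3 IR reads in that aorta. Cd79b, a chain of the B cell receptor complex, Ubd, a ubiquitin-like protein, and Timd4, a phosphatidylserine receptor of resident macrophages, had 109, 13.7 and 57.1 CPM there, and at most 2.7, 1.68 and 6.38 CPM in the other D-3 IR aortas, against at most 2.95, 0.553 and 2.6 CPM in Control aortas. Log2 fold changes of Cd4, Cd79b, Ubd and Timd4 without D-3 IR 10 were 0.29, -0.40, 0.97 and 0.83, where all libraries gave 2.69, 3.05, 2.74 and 2.71. The part of lymphoid tissue in these values was not tested.

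Genes of NK and cytotoxic lymphocytes also had higher fitted levels in D-3 IR, and their median stayed above 0 without that aorta. All 15 tested members had a positive log2 fold change (43.1% of all genes did), with a median of 1.99. At an unadjusted p under 0.05 there were 6 of them (0.5% of all genes were so and higher). Without D-3 IR 10 the median was 0.79, with 13 members tested, 10 of them positive and 0 at an unadjusted p under 0.05. Members near 0 in Control, such as Ncr1 and Eomes, could pass the filter on low counts only through irradiated aortas. The count of signs therefore cannot be set against the share over all genes, and genes of a list can vary together. The D+1 IR minus Control median of this list was 1.71. The summed level of the 22 listed genes was 118 CPM in D-3 IR 10 and 6.47 to 14.7 CPM in the other D-3 IR aortas, against 5.37 to 8.51 CPM in Control aortas. Gzma, the protease granzyme A, had 0.541 to 6.02 CPM with a median of 1.07 CPM in D-3 IR aortas, against 0.663, 0.265, 0.307, 0.0617 and 0.424 CPM in Control aortas. Of the 6 D-3 IR aortas other than D-3 IR 10, 5 lay above all Control aortas, and its log2 fold change was 1.55 without D-3 IR 10, where all libraries gave 2.32 ± 0.87 (SE). Eomes, a transcription factor of cytotoxic lymphocytes, had 2.27 CPM in D-3 IR 10, 0.595 CPM in D-3 IR 11 and at most 0.17 CPM in the other 5, against 0 to 0.106 CPM in Control aortas.

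Target genes of p53 did not differ detectably between the groups at the time of sampling. The 30 members had a median log2 fold change of 0.03 (18 of 30 higher, 0 at an unadjusted p under 0.05), and the 95% interval lay between -1 and 1 for 24 of them. Irradiation came 3 days before the pump and infusion lasted at least 7 days, so a response confined to earlier days could not be seen. Cdkn1a, which encodes the cell cycle inhibitor p21 and is the best known p53 target in radiation responses, had 89.9 to 166 CPM with a median of 127 CPM in D-3 IR aortas, against 87.8, 155, 71, 55.1 and 168 CPM in Control aortas. All 7 D-3 IR aortas lay within the Control range, and the log2 fold change was 0.21 ± 0.30 (SE) with a 95% interval of -0.43 to 0.84. Mdm2, the ubiquitin ligase that degrades p53, had 34.9 to 48.1 CPM with a median of 43.1 CPM in D-3 IR aortas, against 33.2, 36.3, 46.5, 38 and 67 CPM in Control aortas, with an interval of -0.44 to 0.27. Ccng1 (cyclin G1) and Bax, the pore-forming death protein, had log2 fold changes of 0.17 ± 0.21 (SE) and 0.06 ± 0.25 (SE). These 4 were chosen as textbook targets after their values were seen. The members with the smallest p were Bbc3 (0.28 ± 0.19 SE), the death effector PUMA, Ddit4l (1.11 ± 0.75 SE), an inhibitor of mTOR signaling with 20.4 CPM in D-3 IR 10, and Tigar (-0.30 ± 0.24 SE), a phosphatase of glycolysis. Without D-3 IR 10 and Control 9, the median was 0.09 and 2 members were higher at an unadjusted p under 0.05 (0.579% of all genes were), Sesn2 (0.55), a stress-induced sestrin, and Eda2r (0.72), a death receptor.

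The promoter of Cdkn1a is shown because it carried the only full p53 consensus (a pair of decamers 0 to 13 bases apart, either strand) in 28 windows of the 21 list members matched in RefSeq (3.57%, with 0.0731% of all windows). The capitals mark both decamers and the bases between them (chr17:29090729-29091028, plus strand).
Cdkn1a: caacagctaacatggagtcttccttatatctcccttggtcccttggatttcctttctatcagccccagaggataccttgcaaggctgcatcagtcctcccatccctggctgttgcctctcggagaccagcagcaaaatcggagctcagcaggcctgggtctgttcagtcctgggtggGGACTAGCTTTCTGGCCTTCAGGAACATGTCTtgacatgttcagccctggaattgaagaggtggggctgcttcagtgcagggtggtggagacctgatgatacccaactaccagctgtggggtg
No match elsewhere says only that these letters are not within 250 bases before or 50 after a start.

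**Figure D3:**
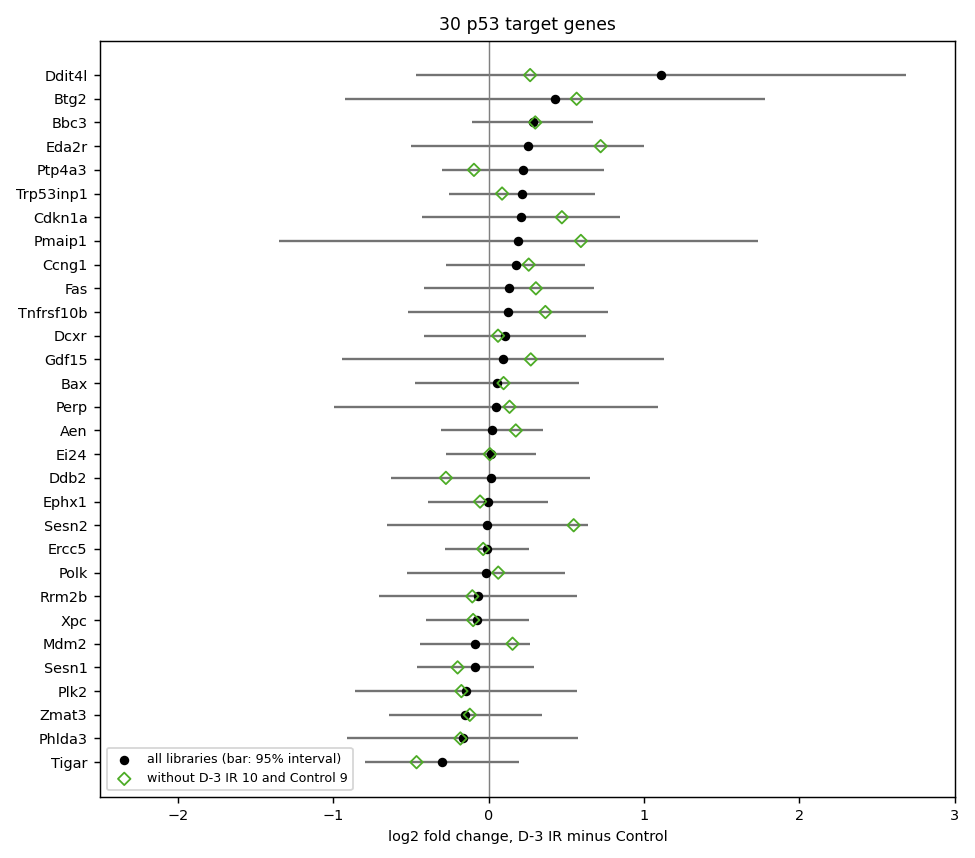
Log2 fold change (D-3 IR minus Control) of the 30 p53 target genes, ordered by value, with its 95% interval (black points, gray bars) and the value without D-3 IR 10 and Control 9 (open diamonds). All 30 intervals include 0, and Ddit4l, the highest at 1.11, falls to 0.27 without these aortas.

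In related programs 0 genes were at an unadjusted p under 0.05, with the same limit of timing. DNA damage sensing and repair genes gave a median log2 fold change of 0.09 (25 of 34 higher, as 43.1% of all genes were), with 28 of 34 intervals between -1 and 1. Gadd45a, a damage-induced gene, and Mdc1, a mediator at DNA breaks, were among the members of smallest p, with log2 fold changes of -0.47 ± 0.33 (SE) and 0.24 ± 0.19 (SE). Senescence and cell cycle inhibitor genes had a median of 0.08, and Cdkn2d and Cdkn1b, inhibitors of cyclin-dependent kinases, gave -0.24 and -0.20. Cell division genes had a median of 0.17 (24 of 30 higher, against the same 43.1%), and 0.46 without D-3 IR 10 and Control 9. The helicase subunits Mcm2, Mcm5 and Mcm6, which license replication, led that list with 0.35 ± 0.30 (SE), 0.49 ± 0.45 (SE) and 0.35 ± 0.33 (SE). Summed levels of the 30 division genes were 311 to 706 CPM in D-3 IR aortas and 116 to 631 CPM in Control aortas, and D-3 IR 13 alone lay above the Control range.

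Contractile smooth muscle genes overlapped widely between the groups, with a large spread in each. Of 36 members 35 had a positive log2 fold change, but the median was 0.16 and 1 was at an unadjusted p under 0.05; since these genes vary together between aortas, the count of signs is not a count of independent observations. Acta2 had 5823 to 15560 CPM with a median of 10090 CPM in D-3 IR aortas, against 3159, 9158, 18520, 8416 and 8977 CPM in Control aortas. Control 4 and Control 6 were the lowest and highest of the 12, and the log2 fold change was 0.13 ± 0.58 (SE) with a 95% interval of -1.08 to 1.35. Tpm2, the beta chain of tropomyosin, had 976 to 2300 CPM with a median of 1484 CPM in D-3 IR aortas, against 509.6, 1708, 2748, 1184 and 1211 CPM in Control aortas, with 0.16 ± 0.42 (SE). Myh11, smooth muscle myosin heavy chain, and Tagln, the actin-binding protein SM22, chosen after their values were seen, gave 0.15 ± 0.57 (SE) and 0.11 ± 0.48 (SE). Prkg1, the kinase through which cyclic GMP relaxes smooth muscle, gave 0.07 ± 0.56 (SE). The member at an unadjusted p under 0.05 was Itgb1bp2, melusin, a protein of striated muscle, at 10.1 CPM (D-3 IR 10) and 5.03 CPM (D-3 IR 15) in the aortas with high skeletal muscle genes, and at most 0.387 CPM in the other 5 D-3 IR aortas, against 0 to 1.17 CPM in Control aortas. Without D-3 IR 10 and D-3 IR 15, an alternative added after the data were seen, its log2 fold change was -0.10. Des, desmin, and Casq2, a calcium buffer of striated muscle, followed with 0.45 ± 0.43 (SE) and 0.56 ± 0.55 (SE).

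Smooth muscle genes are switched on by serum response factor through the CArG box, and 2 promoters with one are shown for that reason. Of 36 contractile genes, 30 matched an entry with 37 windows, and 5 of these (13.5%) held a CArG box on either strand, against 1.63% of all windows. They belonged to Myl9, Myl6, Vcl and Ldb3. In Myl9 (chr2:156775214-156775513, plus strand), the regulatory light chain, and Ldb3 (chr14:34588632-34588931, minus strand), a Z-disc protein, the box is in capitals.
Myl9: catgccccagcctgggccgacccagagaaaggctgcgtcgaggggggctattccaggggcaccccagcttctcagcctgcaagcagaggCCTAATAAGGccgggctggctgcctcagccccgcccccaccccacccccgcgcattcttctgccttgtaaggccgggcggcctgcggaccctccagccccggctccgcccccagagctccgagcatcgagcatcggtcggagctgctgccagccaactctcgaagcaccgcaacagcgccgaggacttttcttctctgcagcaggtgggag
Ldb3: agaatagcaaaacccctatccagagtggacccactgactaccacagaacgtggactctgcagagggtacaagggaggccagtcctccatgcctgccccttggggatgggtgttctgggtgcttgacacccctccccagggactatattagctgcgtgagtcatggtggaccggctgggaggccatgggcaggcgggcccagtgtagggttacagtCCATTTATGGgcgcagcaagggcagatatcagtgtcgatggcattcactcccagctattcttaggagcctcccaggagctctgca
Myl9 had 1585 to 4135 CPM with a median of 2531 CPM in D-3 IR aortas, against 1022, 2498, 5076, 1984 and 1867 CPM in Control aortas, and Ldb3 had 55 to 158 CPM with a median of 120.5 CPM in D-3 IR aortas, against 26.1, 84.3, 153, 63.4 and 75.9 CPM in Control aortas. Control 4 was lowest in both, and their log2 fold changes were 0.05 ± 0.46 (SE) and 0.47 ± 0.48 (SE). Regulators of the smooth muscle state had a median of 0.09. Tcf21, a transcription factor of the modulated and adventitial state, had 1.68 to 7.91 CPM with a median of 5.57 CPM in D-3 IR aortas, against 1.88, 2.07, 3.62, 2.59 and 2.89 CPM in Control aortas and a log2 fold change of 0.85 ± 0.43 (SE, unadjusted p = 0.0622). Spp1, the gene of osteopontin, gave -1.72 ± 1.07 (SE), and -0.57 without Control 9, which held 315 CPM.

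Matrix genes leaned slightly towards D-3 IR without passing the test. Basement membrane genes gave a median log2 fold change of 0.21 (21 of 22 higher), elastic fiber genes 0.10 (18 of 22) and collagens with their processing enzymes 0.07 (18 of 25), with 0 members of these lists at an unadjusted p under 0.05. Of all genes 43.1% were higher, and genes of a list can vary together, so these signs are not independent observations. Without D-3 IR 10 and Control 9 these medians were 0.36, 0.46 and 0.41. Lama5, the laminin alpha 5 chain of endothelial and smooth muscle basement membranes, had 158 to 402 CPM with a median of 209.5 CPM in D-3 IR aortas, against 102, 179.6, 412, 136 and 203 CPM in Control aortas, with 0.31 ± 0.45 (SE). Agrn (agrin), Nid1 (nidogen 1) and Col15a1 (a collagen of the basement membrane zone) gave 0.30 ± 0.24 (SE), 0.35 ± 0.31 (SE) and 0.45 ± 0.49 (SE), and Nid1 was 0.72 without both aortas (unadjusted p = 0.0242). Eln, the gene of elastin, named after its values were seen, had 12680 to 47960 CPM with a median of 27420 CPM in D-3 IR aortas, against 7523, 25680, 49280, 6870 and 35400 CPM in Control aortas, an overlap that left a 95% interval of -1.32 to 1.59. Among the elastic fiber members of smallest p were Emilin2, a glycoprotein of the elastin surface (-1.20 ± 0.74 SE, with 278 CPM in Control 9, and 0.77 without it), and Efemp1, fibulin-3 (0.33 ± 0.30 SE). Col1a1 of type I collagen and Fbn1, fibrillin 1, had 0.07 ± 0.60 (SE) and 0.21 ± 0.53 (SE), and 0.46 and 0.75 without both aortas.

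Metalloproteinases and their inhibitors had a median log2 fold change of -0.08 over 21 tested genes. Of these, 2 were lower at an unadjusted p under 0.05 (0.817% of all genes were), Mmp8 of neutrophils and Mmp9. Mmp9, a gelatinase carried by neutrophils, had 3.24 to 27.9 CPM with a median of 4.84 CPM in D-3 IR aortas, against 7.63, 6.32, 3.99, 6.63 and 183 CPM in Control aortas. Its log2 fold change of -2.26 ± 0.93 (SE) became 0.50 without Control 9 and -0.17 without D-3 IR 10 and Control 9. Mmp2, the gelatinase of resident mesenchymal cells, had 98 to 285 CPM with a median of 214 CPM in D-3 IR aortas, against 172, 190.5, 175, 315 and 258 CPM in Control aortas, with a 95% interval of -0.94 to 0.78. The macrophage elastase Mmp12 had 1.15 to 2.8 CPM with a median of 2.33 CPM in D-3 IR aortas, against 0.258, 6.16, 5.29, 0.986 and 3.71 CPM in Control aortas, and the D-3 IR aortas lay inside the wider Control range. Mmp13, a collagenase, gave -1.37 ± 0.83 (SE), and -0.81 without Control 9. Timp1, Timp2 and Timp3, which inhibit these enzymes, gave -1.06 ± 0.86 (SE), 0.01 ± 0.32 (SE) and 0.27 ± 0.55 (SE), and Timp1 was 0.17 without Control 9.

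Endothelial genes had a positive log2 fold change in 20 of 20 members (43.1% of all genes did), with a median of 0.38, and 0.22 without D-3 IR 10 and Control 9. Genes of a list can vary together between aortas, so the count of signs is not a count of independent observations. The D+1 IR minus Control median of this list was 0.45. Mmrn2, a matrix protein of endothelial cells, had 49.9 to 85.4 CPM with a median of 72.3 CPM in D-3 IR aortas, against 50.9, 57.9, 31.4, 53.5 and 37.2 CPM in Control aortas, with a log2 fold change of 0.60 ± 0.23 (SE, unadjusted p = 0.018, adjusted p = 1). In 5 of the 7 D-3 IR aortas it exceeded all Control aortas. Icam2, an adhesion molecule of resting endothelium, and Plvap, the diaphragm protein of fenestrated capillaries, gave 0.46 ± 0.26 (SE) and 0.63 ± 0.35 (SE), and D-3 IR 10 was highest in both. Without it they were 0.31 and 0.25. Adventitial fibroblast genes had a median of 0.13, with 0 at an unadjusted p under 0.05.

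Macrophage genes gave a median log2 fold change of 0.07 (13 of 22 higher), and 0.66 without Control 9. Lyve1, a hyaluronan receptor of lymphatic endothelium and of resident arterial macrophages, had 14.5 to 76 CPM with a median of 52.5 CPM in D-3 IR aortas, against 19.4, 20.8, 14.5, 24.9 and 58 CPM in Control aortas. Of the 7 D-3 IR aortas 5 lay above Control 4, 5, 6 and 8, while Control 9 fell among them. The log2 fold change was 0.76 ± 0.43 (SE, unadjusted p = 0.0921), and 1.07 without D-3 IR 10 and Control 9 (unadjusted p = 0.0208). Cd68, a lysosomal marker of macrophages, had 12.3 to 52.4 CPM with a median of 27.5 CPM in D-3 IR aortas, against 11.5, 35.4, 10.9, 14.8 and 112 CPM in Control aortas, with -0.26 ± 0.68 (SE), and 0.76 without Control 9. Ccr2, the receptor of inflammatory monocytes, gave -0.86 and 0.76. Of the alternative activation genes, Retnla had -0.22 ± 0.56 (SE), and Chil3 and Arg1 had 169 and 950 CPM in Control 9, with 0.93 and 1.83 without it. Cd209d, a C-type lectin, had 0.757 to 16.2 CPM with a median of 3.87 CPM in D-3 IR aortas, against 1.33, 1.7, 1.01, 1.23 and 1.46 CPM in Control aortas. Of the 7 D-3 IR aortas 5 lay above every Control aorta, and the log2 fold change was 1.84 ± 0.70 (SE, unadjusted p = 0.0171), and 1.11 without D-3 IR 10.

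**Figure D4:**
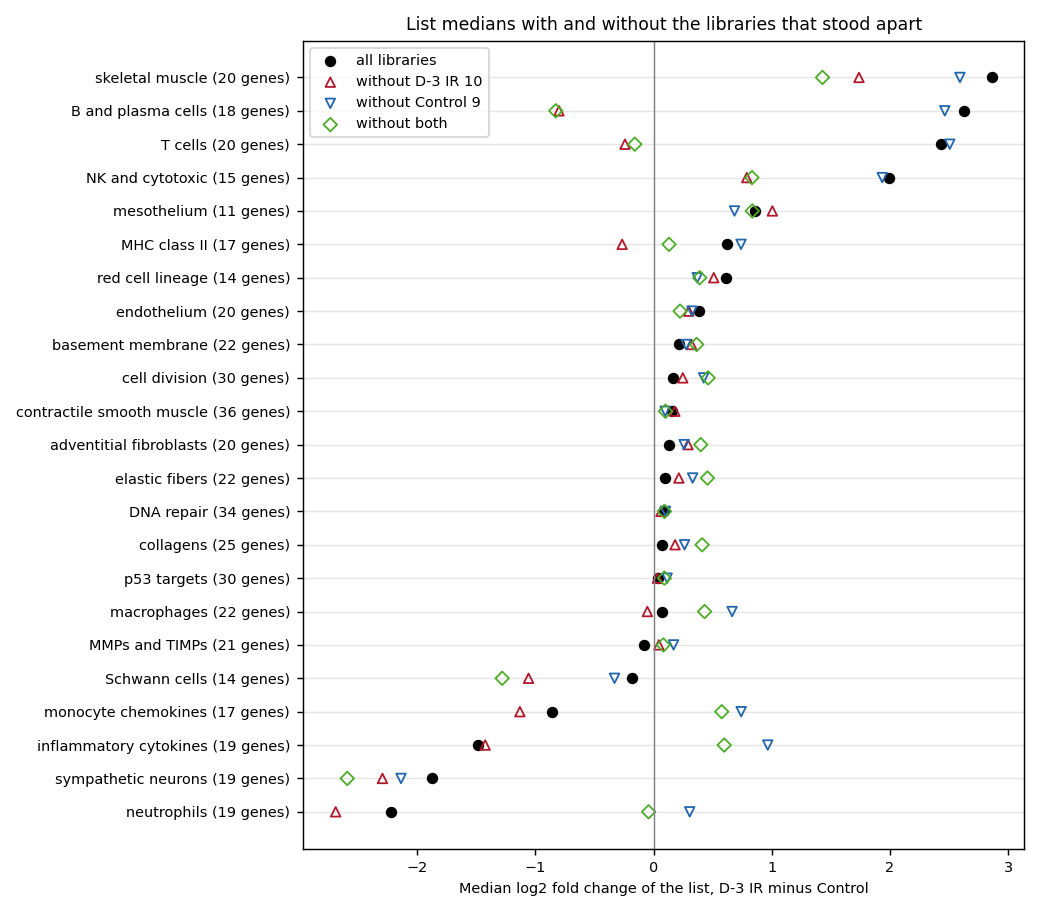
Median log2 fold change (D-3 IR minus Control) of 23 gene lists with all libraries (filled circles), without D-3 IR 10 (upward triangles), without Control 9 (downward triangles) and without both (diamonds); the number of tested genes stands beside each name. Lymphocyte medians near 2.43 and 2.63 fall below 0 without D-3 IR 10, and the neutrophil median of -2.22 becomes 0.31 without Control 9, while p53 targets stay between 0.03 and 0.11.

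Genes of tissues around the vessel differed in fitted size with a few aortas. Skeletal muscle genes gave a median log2 fold change of 2.86, with the highest levels in D-3 IR 10 and D-3 IR 15. Of 20 members 20 were higher (43.1% of all genes were), 1 of them at an unadjusted p under 0.05 (0.5% of all genes were). These genes were high together in the same aortas, so the signs are not independent observations. The median was 1.74 without D-3 IR 10 and 1.43 without D-3 IR 10 and Control 9. Neb, nebulin of the thin filament, had 66.8 and 80.1 CPM in those aortas and 1.89 to 3.21 CPM in the other 5, against 1.29, 10.6, 2.49, 1.48 and 1.67 CPM in Control aortas. Its log2 fold change was 2.71 ± 1.20 (SE), and -0.41 without both of them. Actn3 and Ryr1, proteins of fast fibers and of calcium release, had 3.56 ± 1.72 (SE) and 2.85 ± 1.44 (SE), and 1.23 and 1.85 without D-3 IR 10 and Control 9. Genes of sympathetic neurons and adrenal medulla had a negative log2 fold change in 19 of 19 members, with a median of -1.88 and 0 at an unadjusted p under 0.05. Over all genes 43.1% of log2 fold changes were positive, and genes of a list can vary together, so the signs are not independent observations. The vesicular transporter Slc18a2, which loads catecholamines, had 3.4 to 77.7 CPM with a median of 7.06 CPM in D-3 IR aortas, against 121, 4.86, 2.61, 379 and 8.56 CPM in Control aortas, so that 3 D-3 IR aortas and 2 Control aortas were high. Slc18a1, its relative of the adrenal medulla, and Stmn2, a tubulin-binding protein of growing axons, gave -2.67 ± 1.59 (SE) and -1.81 ± 1.21 (SE). Without Control 8 the log2 fold changes of Slc18a2, Slc18a1 and Stmn2 were -0.37, 1.22 and -0.51, and the list median was -0.42. Red cell, white adipocyte, brown adipocyte and mesothelial genes had medians of 0.61, 0.26, 0.11 and 0.85, with 0 members at an unadjusted p under 0.05 in each list.

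Leaving out D-3 IR 10 and Control 9 brought other genes to the smallest p, with 0 called (0%). Svep1, a large adhesion protein made by mesenchymal cells, had 22.1 to 211 CPM with a median of 116 CPM in D-3 IR aortas, against 54.6, 66.1, 37.4, 55.6 and 199.6 CPM in Control aortas. Without D-3 IR 10 (22.1 CPM) and Control 9 (199.6 CPM), the D-3 IR aortas lay at 78.9 CPM or above and the Control aortas at 66.1 CPM or below, and the log2 fold change was 1.31 (unadjusted p = 0.000894), where all libraries gave 0.49. Without these aortas 99 of 17789 genes (0.557%) had no overlap of the groups, and Svep1 was named by its small p in that same fit. Icam1, the leukocyte adhesion molecule, had 22.4 to 40.5 CPM with a median of 28.6 CPM in D-3 IR aortas, against 13.5, 15, 13.4, 20.5 and 51.3 CPM in Control aortas, and without both its log2 fold change was 0.85 (unadjusted p = 0.00128). Papss2, which makes the sulfate donor for proteoglycans, gave 0.67. On the lower side, Rapgef4, the cyclic AMP sensor EPAC2, had 1.68 to 9.28 CPM with a median of 2.37 CPM in D-3 IR aortas, against 5.08, 5.25, 3, 5.83 and 1.54 CPM in Control aortas and a log2 fold change of -1.09 without both. Mbp (myelin basic protein), Kcna2 (an axonal potassium channel) and Rec8 (a meiotic cohesin) gave -1.37, -1.62 and -2.86. In that fit 8 of 14 Schwann cell genes were lower at an unadjusted p under 0.05 (2.15% of all genes were) and the list median was -1.28. With all libraries it was -0.18, with 0 such members, and D-3 IR 10 held the highest summed level (2287 CPM) and Control 9 the lowest Control level (403 CPM). These genes were brought forward by leaving libraries out and are given as a description.

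The genes that the study also assayed by RT-qPCR, and Cd68, which it stained in sections, 25 in all, were each tested by an exact two-sided permutation test of the difference in mean log2 CPM over all 792 assignments of the 12 aortas. The smallest permutation p was 0.1212, for Il10, and every p adjusted over the 25 genes was 0.989 or above. Il10, an anti-inflammatory cytokine, had 0.0849 to 0.852 CPM with a median of 0.282 CPM in D-3 IR aortas, against 0.0368, 0.265, 0.0682, 0 and 0.398 CPM in Control aortas, few reads in each aorta. Il4, Tnf and Tgfb1, cytokine genes of type 2, inflammatory and fibrogenic responses, gave edgeR log2 fold changes of -0.50 ± 0.54 (SE), 0.01 ± 0.93 (SE) and -0.07 ± 0.30 (SE). Tgfbr1, the type I receptor of the last, gave 0.14 ± 0.39 (SE). In genes driven by Control 9 the measures differed: Il6 had an edgeR log2 fold change of -3.10 and a difference of mean log2 CPM of 0.30, and Ccl2 had -2.73 and -0.36. A mean of logs gives less weight to 1 high value.

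**Figure D5:**
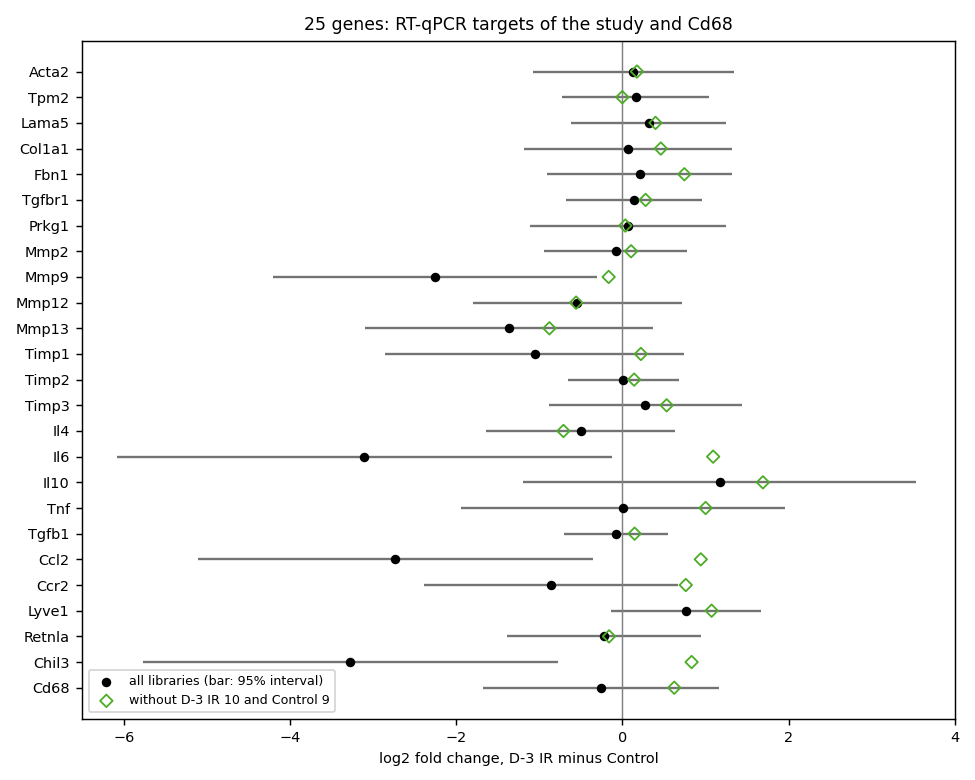
Log2 fold change (D-3 IR minus Control) of the 25 genes (RT-qPCR targets of the study and Cd68) with its 95% interval (black points, gray bars) and the value without D-3 IR 10 and Control 9 (open diamonds). Intervals of Mmp9, Il6, Ccl2 and Chil3 lie below 0, and without these aortas Il6, Ccl2 and Chil3 stand above 0.

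The remaining lists held few members at an unadjusted p under 0.05. NADPH oxidases and antioxidant enzymes had a median log2 fold change of -0.14 (5 of 23 higher), and Srxn1, the sulfiredoxin that repairs peroxiredoxins, had 44.4 to 64.5 CPM with a median of 54.9 CPM in D-3 IR aortas, against 80.4, 54.9, 52.3, 89.3 and 79.6 CPM in Control aortas. Control 4, 8 and 9 lay above all D-3 IR aortas, and its log2 fold change was -0.38 ± 0.19 (SE, unadjusted p = 0.0595). Renin-angiotensin genes had a median of 0.14. Agtr1a, a receptor of AngII, had 3.54 to 19.7 CPM with a median of 5.45 CPM in D-3 IR aortas, against 26.6, 4.64, 1.94, 96.6 and 4.56 CPM in Control aortas. It was highest in Control 8 and Control 4, the aortas with the most sympathetic transcripts. Its log2 fold change was -1.65 ± 0.84 (SE), and -0.14 without Control 8. Medians were 0.07 for TGF-beta signaling, 0.06 for the NF-kappa B pathway, 0.11 for interferon response, 0.15 for complement, -0.04 for immediate early, 0.01 for heat shock, 0.15 for clock and -0.05 for mitochondrially encoded genes, each with 0 members at an unadjusted p under 0.05. Calpains, lipopolysaccharide sensing genes and mast cell genes had medians of 0.03, -0.10 and 0.00045, with Capn12, Cd14 and Hdc as their only such members. Of 11 adrenal cortex genes 4 passed the filter on low counts, with a median of 0.16, and Cyp11b2, the aldosterone synthase, had 0 reads in all 12 aortas.

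Whether irradiation before AngII left another profile than irradiation after it was asked by the contrast of D-3 IR with D+1 IR in the same fit. Of 17617 genes 0 were called (0%) and 2018 were at an unadjusted p under 0.05 (11.5%), and D+1 IR against Control gave 0 called and 1253 (7.11%). Both effects share the 5 Control aortas, so their values stand side by side only. The contractile list had a median log2 fold change against Control of 0.16 for D-3 IR and -0.93 for D+1 IR, and 28 of its 36 members were at an unadjusted p under 0.05 between the irradiated groups. These genes vary together between aortas, so the 28 are not independent observations. Their summed levels were 8202, 16030, 4131 and 6613 CPM in D+1 IR 1, 2, 3 and 20. In D+1 IR 17, 18 and 19 they were 33220, 25790 and 24490 CPM, within the D-3 IR range of 21460 to 53360 CPM. Tissue markers also differed in fitted level: D+1 IR minus Control medians of the white adipocyte, brown adipocyte and red cell lists were 0.99, 0.88 and -2.48. The skeletal muscle median was -0.37 for D+1 IR and 2.86 for D-3 IR, with 12 of 20 members at an unadjusted p under 0.05 between the irradiated groups. The part of these tissues in this contrast was not tested. Tpm2, Des, Tcf21 and Eln had D-3 IR minus D+1 IR log2 fold changes of 1.16, 1.43, 1.41 and 1.98 (SE 0.39, 0.40, 0.39 and 0.66), each with an adjusted p of 0.409 in edgeR. Of the D-3 IR aortas, Tpm2 and Des were highest in D-3 IR 10 (2300 and 690 CPM), the aorta with the most skeletal muscle transcripts. In D-3 IR 15, the next in those transcripts, they had 1202 and 472 CPM. For Capn12, Foxq1 and Mmrn2 both irradiated groups had positive values against Control, 1.22, 4.41 and 0.60 for D-3 IR and 0.87, 5.22 and 0.65 for D+1 IR.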

How the data were processed

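RNA-seq of abdominal aortas from 19 Apoe-/- mice was used. According to the study's methods, polyadenylated RNA was made into libraries with a strand-keeping kit and sequenced on an Illumina instrument. The authors checked reads with FastQC, aligned them with STAR 2.7.9a to GRCm38 and deposited raw read counts per gene, with unstranded, first-strand and second-strand columns and no normalization. Reads outside genes stayed out of library totals (67.5 to 78% of reads were in genes). Unstranded counts were used here, since both strands held equal shares.

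Groups were taken from the sample titles. Genes passing filterByExpr (17617 of 55414) were scaled by TMM and fitted with edgeR 4.0.16 (quasi-likelihood, 3 groups, all 19 libraries, which share 1 estimate of the spread) in R 4.3.3, with Benjamini-Hochberg adjustment over all genes. Intervals and standard errors come from that fit, and adjusted p was 1 for every gene unless another value is given. The unadjusted threshold of 0.05 serves to describe lists only. Counts of signs in any list stand beside 43.1% of all genes with a positive log2 fold change. Genes of a list can vary together, so such counts are not counts of independent observations. Genes that the study assayed by RT-qPCR, and Cd68 (stained), were tested by exact permutation of log2 CPM (prior count 2) with SciPy 1.17.1. The fitting code was tested on simulated data. Gene names are those of GENCODE M21, and promoters are from RefSeq (GRCm38.p6). No 2 libraries were copies: in the closest pair, chi-square per degree of freedom over genes was 55.81.

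The members of the gene lists were chosen with earlier results of these data known. Named genes were the 10 of smallest p in each direction, the genes of the RT-qPCR assays with Cd68, up to 3 members of smallest p in each list described, the 5 of smallest p in each direction without D-3 IR 10 and Control 9, and markers of highest level. A few genes that this rule names are not reported here. Predicted genes were counted without being named, except for 1. Genes outside this rule, chosen after their values were seen, were Zc3h15, Mocs3, Apoe, Pdcd5, Cdkn1a, Mdm2, Ccng1, Bax, Myh11, Tagln, Eln, Cxcl2, Myl9, Ldb3, Eda2r, Sesn2 and Cyp11b2. Alternatives were other scaling, filters, tools (DESeq2 1.42.0, limma 3.58.1, sva 3.50.0), libraries and strand.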

Additional observations from a re-analysis of the deposited data

Results flagged for a closer look

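In 25 of 226 gene and group combinations (11.1%, 113 genes), 1 aorta lay far from the others of its group by Dixon's criterion. Chance alone meets this criterion in about 1 of 20 groups. Many of the 113 genes were named for a small p, with or without D-3 IR 10 and Control 9, so the share cannot be set against chance. Genes that vary together are also not independent. Within D-3 IR, library 10 was far above the others for Glycam1 (214 CPM), Cd4 (52 CPM), Trbc2 (48.4 CPM), Cd79b (109 CPM), Timd4 (57.1 CPM), Rapgef4 (9.27 CPM) and Rec8 (0.529 CPM), and far below them for Mmp2 (98 CPM) and Eda2r (1.69 CPM). Other D-3 IR aortas that lay far below their group were D-3 IR 13 for Mmp12 (1.15 CPM) and Tnf (0 CPM), D-3 IR 14 for Mocs3 (6.8 CPM) and D-3 IR 15 for Il4 (0.764 CPM).

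Within Control, library 9 was far above the others for Arg1 (950 CPM), Mmp9 (183 CPM), Mxd1 (166 CPM), Papss2 (45.5 CPM), Nlrp3 (31.5 CPM), Ccl3 (18.2 CPM), Arg2 (9.57 CPM) and Foxq1 (0.0265 CPM, 1 read), and far below them for Mbp (38.7 CPM). Control 6 was far above the others for 9530053A07Rik (46.2 CPM) and Agrn (144 CPM), and Control 5 for Actn3 (23.1 CPM), a gene of fast muscle fibers.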

How the results depend on the processing

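No gene was called under any alternative run, and the smallest adjusted p among them was 0.318, with edgeR's newer quasi-likelihood method. The 232 genes at an unadjusted p under 0.05 became 1970 of 35160 with no filter on low counts, 150 of 14608 with a filter of at least 1 CPM in at least 5 libraries, 138 with limma voom, 486 without D-3 IR 10 and Control 9 together and 193 to 459 when each of the 12 libraries was left out in turn, with 459 without Control 6 and 435 without Control 5. Genes without overlap numbered 2, and 1 with upper quartile factors, 11 with no filter, 4 with second-strand counts, 99 without D-3 IR 10 and Control 9 and 2 to 27 with 1 library left out, with 27 without Control 9 and over 1.5 times the count in all but the fits without D-3 IR 12 or D-3 IR 13. Of 113 genes examined, 43 were at an unadjusted p under 0.05, and of these 17 took the opposite sign without Control 9 and 16 without D-3 IR 10 and Control 9. Among all 113 genes, whatever their p, 28 took the opposite sign without Control 9, 30 without both and 8 without D-3 IR 10. Of the genes at that p, log2 fold changes without both were 0.20 for Cd14, 0.045 for Mxd1, 0.24 for Hdc, 0.89 for Il1rn, 0.37 for Nlrp3, 1.09 for Il6, 0.94 for Ccl2, 0.83 for Chil3, 0.96 for Il1b, 0.57 for Ccl4, 0.47 for Ccl3, 1.90 for Arg1, -0.13 for Trbc2, 0.52 for Itgam, 0.61 for Hmox1 and 2.67 for Cxcl2. Over the 12 fits that each left out 1 library they ran -3.14 to 0.17 for Cd14, -1.83 to 0.062 for Mxd1, -2.46 to 0.30 for Hdc, -3.63 to 1.02 for Il1rn, -2.98 to 0.46 for Nlrp3, -2.92 to 0.50 for Mmp9, -3.59 to 0.97 for Il6, -3.08 to 0.92 for Ccl2, -3.63 to 0.93 for Chil3, -4.34 to 0.64 for Il1r2, -4.13 to 0.97 for Il1b, -3.65 to 0.58 for Ccl4, -3.35 to 0.97 for Ccl3, -4.61 to 1.83 for Arg1, -0.13 to 3.47 for Trbc2, -2.25 to 0.68 for Itgam, -2.41 to 0.92 for Hmox1 and -5.53 to 2.56 for Cxcl2. Il6 was 0.40 with voom and 0.33 with voom and sample weights, and Trbc2 was -0.058 with DESeq2. A pair of alternatives was added after the data were seen. Without D-3 IR 10 and D-3 IR 15 the values were -0.41 for Neb and -0.10 for Itgb1bp2, and without Control 4 and Control 8 there were 442 genes at an unadjusted p under 0.05. For changes between tools or scalings the cause was not tested. Of 42 list medians, 7 moved by more than 1 SD (between replicates, of the list's mean log2 CPM) without both libraries, 3 without D-3 IR 10, 3 without Control 9, 5 with voom, 4 with voom and sample weights, 1 with DESeq2, 5 without D-3 IR 10 and 15 and 1 without Control 4 and 8. No paired analysis was possible because the groups hold different mice and share no replicate number. With 7 and 5 aortas, the lists with the widest intervals were those of skeletal muscle, sympathetic neuron and B cell genes (median half-widths of 3.60, 3.40 and 3.29).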
